A study of Arabidopsis thaliana with 3 samples.

Results

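The jasmonate genes described here are 41 genes for the synthesis, perception, signalling, turnover and outputs of the plant hormone jasmonate, out of 37899 annotated nuclear genes of Arabidopsis thaliana. They were chosen by locus identifier from knowledge of the pathway, but with the peak calls of these libraries in view, so the number of bound members is a description and was not tested. What was measured is the genomic position of AIPP3, a BAH domain protein studied for its recognition of H3K27me3, the histone mark of Polycomb repression, by chromatin immunoprecipitation followed by sequencing (ChIP-seq) with a Myc antibody. The 2 genotypes were profiled as whole 13-day-old seedlings of the Col-0 ecotype, grown with 16 h of light and 8 h of dark at 23 °C. The AIPP3-4Myc group had 2 libraries, replicates 1 and 2, from plants that carried an AIPP3 genomic transgene with a Myc tag under its own promoter. By the study's methods such transgenes were put into the matching mutant, so that genetic background, transgene and tag all separate these plants from Col-0. The Col-0 group had 1 library, from untagged plants, and gives the background of the antibody. Whether the AIPP3-4Myc libraries came from separate lines or days was not stated, so the spread between them may be technical.

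Jasmonate is made from linolenic acid of chloroplast lipids and becomes active when it is joined to isoleucine. The conjugate, JA-Ile, binds the F-box protein COI1 together with a JAZ repressor, the JAZ protein is degraded, and MYC transcription factors are released to switch on target genes. Among these targets are genes of jasmonate synthesis, the JAZ genes and the enzymes that inactivate JA-Ile, so the pathway both amplifies and restrains itself, and it is best known in seedlings for responses to wounding and insect feeding and for the restraint of growth.

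A gene was called bound in a library when a peak of its list overlapped, by at least 1 bp, its target region, which began 1 kb before the transcription start site (TSS) and ended at the transcription termination site (TTS). There were 26 peaks in the Col-0 list, 933 in that of AIPP3-4Myc replicate 1 and 437 in that of replicate 2, of which 16, 926 and 430 lay on the 5 nuclear chromosomes. Each peak carries a score from the peak caller MACS, which is the negative log10 of its p-value times 10. The number of reads behind each list is unknown and a score grows with it, so scores were ranked within a list and not compared between lists. For a gene without a peak the lists tell only that the peak caller's limit was not reached, and AIPP3 may still be there. Whole seedlings pool all cell types, so a peak in few cells and a weak peak in many cannot be told apart.

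AIPP3-4Myc peaks lay on 11 of the 41 jasmonate genes (26.8%) in both replicates, on genes of synthesis, signalling and turnover. These were LOX3, LOX4, AOS and OPR3 of synthesis, JAZ1, JAZ5 and MYC2 of signalling, and CYP94B3, CYP94C1, ILL6 and AT5G05600 of turnover. Replicate 1 had peaks on 12 members (29.3%), adding CYP94B1. In replicate 2 there were 13 bound members (31.7%), adding DAD1 and JAZ2. No member had a peak in Col-0, and 27 members had none in any library.

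Over all annotated nuclear genes, 1.41% were bound in both replicates (535 genes), 4.26% in replicate 1, 1.89% in replicate 2 and 0.0607% in Col-0. Among the 27444 protein-coding genes, the class to which every member belongs, the share bound in both replicates was 1.67%. Because the members were proposed with these calls known, nothing is read from the gap between these shares and those of the members. The joint count of 11 fell to 7 (17.1%) when peaks needed a score of at least 100. It fell to 6 (14.6%) when each peak was given only to the gene with the nearest TSS. The share over all annotated nuclear genes fell as well, from 1.41% to 0.435% and 0.763%. With 1 Col-0 library, and 16 nuclear peaks in its list, the contrast with untagged plants rests on a single control list.

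The steps of the pathway differed in how many of their genes carried a peak. Turnover had 4 of 8 genes bound in both replicates (50%), synthesis 4 of 12 (33.3%) and signalling 3 of 18 (16.7%), while none of the 3 output genes was bound. Over all annotated nuclear genes the share bound in both replicates was 1.41%. Replicate 1 added 1 turnover gene, and replicate 2 added 1 gene of synthesis and 1 of signalling. The sizes of these shares rest partly on which genes were listed, on the score limit and on how peaks are assigned. A second list of 35 further jasmonate genes, described below, was not divided into steps. In both replicates 3 of those genes (8.57%) were bound, so another choice of genes would give other shares. With a score of at least 100 or with the nearest TSS only, turnover had 3 genes (37.5%) and synthesis 2 (16.7%). Signalling had 2 (11.1%) with a score of at least 100 and 1 (5.56%) with the nearest TSS only. The order of the shares was the same in these settings. These settings reuse the same peaks, and the genes and steps were chosen with the calls known, so nothing is read from that order. With 3 to 18 genes in a step, 1 gene more or less moves these shares by many percentage points, and their differences were not tested.

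**Figure D1:**
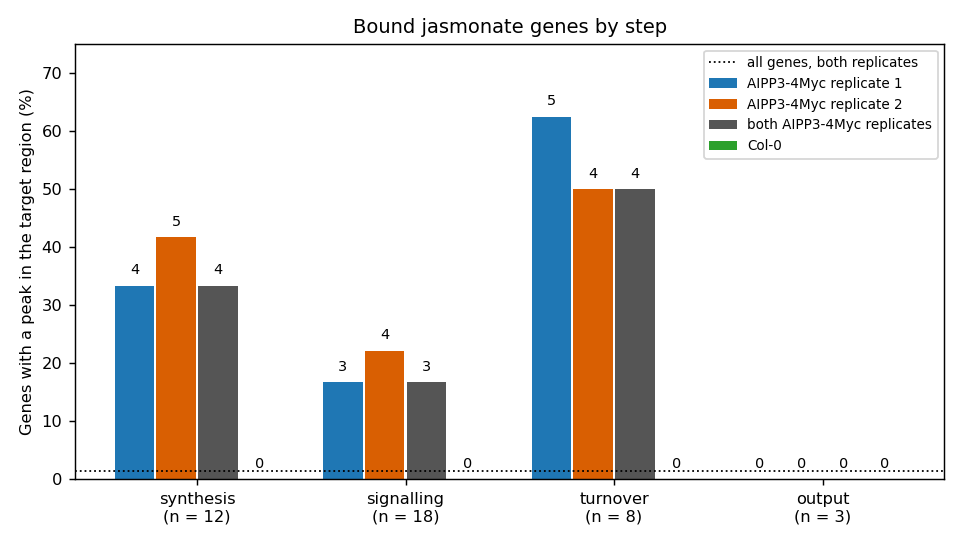
Share of the jasmonate genes with a peak in the target region (y axis, percent) by step of the pathway, with bars for AIPP3-4Myc replicate 1, replicate 2, both replicates and Col-0, and the number of genes above each bar. Turnover has 5, 4 and 4 of 8 genes bound, signalling 3, 4 and 3 of 18, and the output genes and Col-0 have none. The dotted line marks the 1.41% of all nuclear genes bound in both replicates.

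Synthesis begins with DAD1, a lipase that frees linolenic acid, and the lipoxygenases LOX2, LOX3, LOX4 and LOX6, which oxygenate it. The related genes LOX3 and LOX4 were bound in both replicates, and LOX2 and LOX6 in neither. At LOX4 (AT1G72520, chromosome 1, 27308513 to 27312756, plus strand) the replicate 1 peak ran from 27308301 to 27312793 and that of replicate 2 from 27308408 to 27312893, with scores of 173 and 130. Both peaks thus covered the whole gene from just upstream of the TSS to past the TTS, into the upstream region of AT1G72530.

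LOX3 (AT1G17420, chromosome 1, 5977323 to 5981521, plus strand) showed the least agreement in extent between the libraries. In replicate 1 the peak reached from 5977073 to 5981520, scored 137 and covered all of the gene body but its last base. In replicate 2 it reached from 5979558 to 5981781, scored 69.1, the lowest of the member peaks in that list, and covered 46.8%. The libraries therefore shared the downstream part of LOX3, next to the upstream region of AT1G17430, which both peaks entered, and the TSS was under a peak in replicate 1 alone. DAD1 (AT2G44810, chromosome 2) had a peak in replicate 2 alone, from 18478209 to 18480456 with a score of 80.0, which covered the gene up to its last base, and in replicate 1 the nearest peak was 13.3 kb away.

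The next enzymes are allene oxide synthase (AOS), the allene oxide cyclases AOC1 to AOC4 and the reductase OPR3, which together turn the lipoxygenase product into the precursor of jasmonate. AOS and OPR3 were bound in both replicates and none of the 4 AOC genes was bound in either. At AOS (AT5G42650, chromosome 5, 17097564 to 17099595, minus strand) the peaks spanned 17097576 to 17099572 in replicate 1 and 17098238 to 17099470 in replicate 2, with scores of 126 and 76.0. Both lay inside the gene and left the TSS free. At OPR3 (AT2G06050, chromosome 2, 2359114 to 2362375, minus strand) the peaks spanned 2358361 to 2362294 and 2358354 to 2362261, with scores of 229 and 110.

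The OPR3 peaks were nearly identical in extent, with midpoints 20.0 bp apart, and ran past the TTS over the whole of AT2G06045, a pseudogene of 387 bp. The AOC genes AOC1, AOC2 and AOC3 stand in tandem on chromosome 3, with gaps of 1.33 kb and 1.09 kb between neighbours, and the nearest peak to this cluster was 5.32 kb from the target region of AOC1 in replicate 1 and 5.28 kb in replicate 2. AOC4 lay closer to a peak, at 2.60 kb and 2.88 kb. JAR1, the enzyme that joins jasmonate to isoleucine, had its nearest peaks 117 kb away in replicate 1 and 168 kb away in replicate 2. The gaps of LOX2 were 3.40 kb and 251 kb, and those of LOX6 were 184 kb and 297 kb.

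In signalling, the receptor gene COI1 had no peak, and neither did NINJA, which encodes the adaptor between JAZ proteins and the co-repressor TOPLESS, or JAM1, which encodes a bHLH repressor. The gaps to the nearest peak in replicates 1 and 2 were 11.1 kb and 23.1 kb for COI1, 8.46 kb and 124 kb for NINJA, and 97.3 kb and 226 kb for JAM1. Of the 12 JAZ genes, JAZ1 and JAZ5 were bound in both replicates, JAZ2 in replicate 2 alone, and JAZ3, JAZ4 and JAZ6 to JAZ12 in neither. At JAZ1 (AT1G19180, chromosome 1, 6621777 to 6623668, plus strand) the peaks spanned 6621883 to 6624927 in replicate 1 and 6621833 to 6624748 in replicate 2, with scores of 162 and 227. These peaks started inside the gene, covered 94.4% and 97.0% of it, and ran on into the neighbouring AT1G19190, a gene of the alpha/beta-hydrolase family, over 1105 bp and 926 bp of its body. They also entered the upstream region of AT1G05473, a long non-coding RNA gene. Which of these neighbours a peak of this width belongs to cannot be told from the list.

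At JAZ5 (AT1G17380, chromosome 1, 5955155 to 5957511, minus strand) both peaks were 2216 bp wide, with scores of 164 in replicate 1 and 87.5 in replicate 2. They spanned 5955109 to 5957324 and 5955205 to 5957420 and covered 92.1% and 94.0% of the gene. Both also lay in the upstream region of UBP1B (AT1G17370), and the replicate 1 peak covered 35 bp of its body. JAZ5 and LOX3 lie 19.8 kb apart on chromosome 1, and each had a peak of its own. JAZ2 (AT1G74950, chromosome 1, minus strand) had a replicate 2 peak from 28148182 to 28150184 with a score of 72.5, and its nearest replicate 1 peak was 164 kb away.

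The MYC factors are bHLH proteins that activate jasmonate-responsive genes and are held inactive by JAZ proteins. MYC2 was bound in both replicates, and MYC3, with gaps of 25.7 kb and 25.9 kb, and MYC4, with gaps of 25.5 kb and 36.7 kb, in neither. At MYC2 (AT1G32640, chromosome 1, 11798119 to 11801407, minus strand) the peaks spanned 11798721 to 11801042 with a score of 112 in replicate 1 and 11798939 to 11801091 with a score of 127 in replicate 2. They covered 70.6% and 65.5% of the gene, in its central part, and left the TSS free. The gene AT1G32630, on the opposite strand, overlaps MYC2, and both peaks lay entirely within its body as well. ChIP-seq carries no strand, so these peaks belong to either gene.

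Turnover held the member with the highest score in each list, CYP94B3, and the member with the lowest score in replicate 1, CYP94B1. CYP94B1, CYP94B3 and CYP94C1 encode cytochromes P450 that oxidise JA-Ile, and CYP94B2 is a further member of this family. At CYP94B3 (AT3G48520, chromosome 3, 17974853 to 17976774, minus strand) the peaks spanned 17974412 to 17976903 in replicate 1 and 17974279 to 17976894 in replicate 2, with scores of 482 and 267. These ranked 3 of 926 and 9 of 430 nuclear peaks. The entire gene, its TSS and a tRNA gene past the TTS (AT3G48515) were under both peaks, which also entered the upstream region of AT3G07985, a long non-coding RNA gene.

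CYP94C1 (AT2G27690, chromosome 2, 11809279 to 11811280, plus strand) had peaks from 11809100 to 11811184 and from 11809215 to 11810872, with scores of 114 and 111. They covered the TSS and 95.2% and 79.6% of the gene. At CYP94B1 (AT5G63450, chromosome 5, minus strand) replicate 1 alone had a peak, from 25409100 to 25410872. Its score of 68.7 was the lowest of the member peaks in replicate 1, where it ranked 522 of 926. CYP94B2 had no peak, with the nearest 13.8 kb and 13.6 kb away.

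The other turnover genes encode ILL6 and IAR3, amidohydrolases that split hormone conjugates with amino acids, AT5G05600, annotated as an oxygenase that depends on oxoglutarate and iron, and JMT, a methyltransferase that makes methyl jasmonate. ILL6 and AT5G05600 were bound in both replicates, and IAR3, with gaps of 36.6 kb and 23.3 kb, and JMT, with gaps of 10.1 kb and 39.3 kb, in neither. At ILL6 (AT1G44350, chromosome 1, 16834210 to 16838562, minus strand) the scores were 307 for a replicate 1 peak at 16834662 to 16838565 and 129 for a replicate 2 peak at 16836597 to 16838484. The narrower replicate 2 peak lay wholly inside the replicate 1 peak, on the side of the gene next to the TSS. At AT5G05600 (chromosome 5, 1672070 to 1674770, plus strand) the peaks spanned 1671901 to 1673350 and 1671903 to 1673226, with scores of 106 and 91.1. They covered the TSS, 47.4% and 42.8% of this gene and most of the short neighbouring gene AT5G05598 upstream.

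The output genes VSP1 and VSP2, which encode vegetative storage proteins, and PDF1.2, which encodes a defensin, were far from any peak. Their gaps to the nearest peak ran from 81.5 kb to 95.2 kb in replicate 1 and from 79.1 kb to 95.7 kb in replicate 2. VSP1 and VSP2 are neighbours, 5.37 kb apart, so their gaps are not independent.

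**Figure D2:**
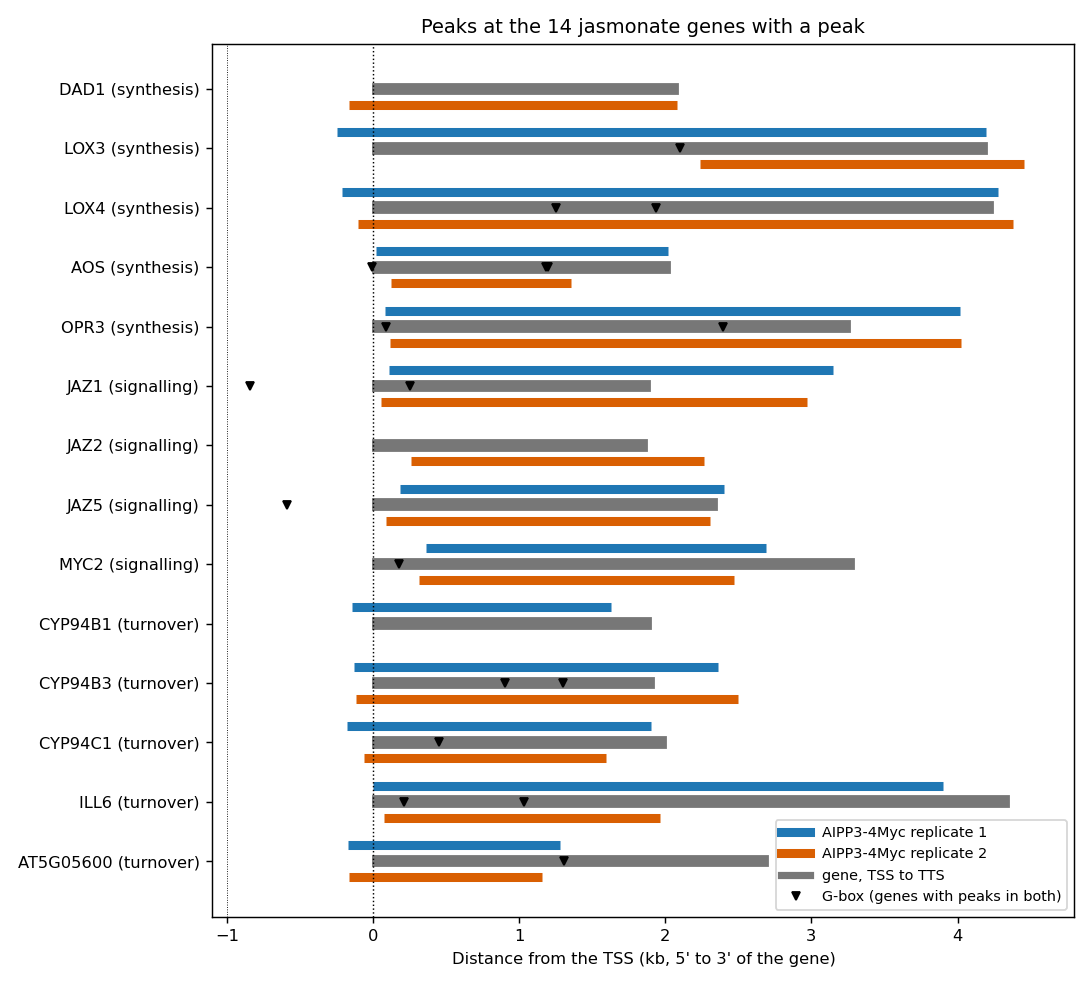
Peaks at the 14 jasmonate genes with a peak in at least 1 AIPP3-4Myc library, drawn to scale by distance from the TSS (x axis, kb), with the gene as a grey bar, replicate 1 above it and replicate 2 below it. Triangles mark G-boxes in the target regions of the 11 genes bound in both replicates, and the thin dotted line marks the upstream end of the target region. Peaks lie over gene bodies, none is confined to the upstream part, and the G-boxes upstream of JAZ1, JAZ5 and AOS lie outside the peaks.

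The peaks of the members lay over gene bodies. Every midpoint was downstream of the TSS and upstream of the TTS, from 555.5 bp to 2047.5 bp after the TSS in replicate 1 (median 1410 bp) and from 494.5 bp to 3346.5 bp in replicate 2 (median 1198.5 bp). For the peaks of all bound genes the median distance was 536 bp in replicate 1 and 746.5 bp in replicate 2. That set includes genes touched only by the edge of a peak. Gene length also enters this distance. Its median was 2701 bp for members bound in both replicates and 1915 bp for all protein-coding genes bound in both. Of the 12 replicate 1 midpoints 7 were in coding sequence, 4 in introns and 1 in an untranslated region, and the 13 replicate 2 midpoints divided into 8, 4 and 1.

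The median share of the gene body under a peak was 94.8% over the bound members in replicate 1 and 86.0% in replicate 2. Over all bound genes it was 67.8% and 70.5%, a set that includes genes touched only upstream or by the edge of a peak. Since the members were chosen with the peaks in view, nothing is read from this difference. The TSS itself was under a peak in 7 of 12 bound members in replicate 1 and 5 of 13 in replicate 2, where all bound genes had 54.3% and 38.2%. In both replicates together the TSS was covered at 4 of the 11 genes, namely LOX4, CYP94B3, CYP94C1 and AT5G05600. AOS, OPR3, JAZ1, JAZ5 and MYC2 were covered downstream of the TSS in both libraries.

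The replicates placed these peaks at nearly the same positions. For the 11 genes bound in both, the shared stretch was between 88.3% and 100% of the replicate 2 peak and between 44.1% and 99.6% of the replicate 1 peak. The midpoints differed by a median of 103.5 bp, from 20.0 bp at OPR3 to 927 bp at ILL6 and 1373 bp at LOX3. At LOX3, AOS and ILL6 the replicate 1 peak was clearly the wider one, and at the other 8 genes the shared stretch was at least 79.5% of either peak. The member peaks were wide, with medians of 2407 bp and 2216 bp against 1724 bp and 1591.5 bp for all nuclear peaks of the lists. These widths describe genes chosen with the peaks in view, and the difference was not tested.

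Most member peaks stood in the upper part of their list by score. In replicate 1, 11 of 12 were among the highest 25% of scores, with a median of 150 against 72.7 for all nuclear peaks. In replicate 2, 11 of 13 were in the upper 50% and 7 in the highest 25%, with a median of 110 against 74.3. Because the members were chosen with these peaks in view, nothing is read from their scores against the whole list. The exceptions below the middle of their lists were CYP94B1 in replicate 1 and LOX3 and JAZ2 in replicate 2. After CYP94B3, the best ranked members were ILL6 (rank 11) and OPR3 (rank 21) in replicate 1, and JAZ1 (rank 13) and LOX4 (rank 56) in replicate 2.

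**Figure D3:**
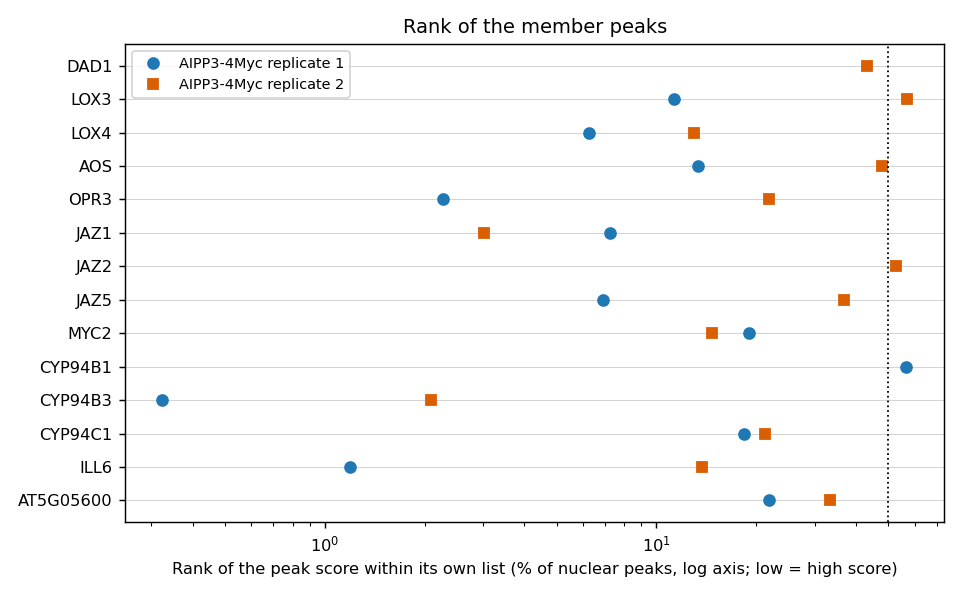
Rank of each member's peak by score within its own list (x axis, percent of the nuclear peaks of that list, log axis, low values are high scores) for the 14 genes with a peak, with circles for AIPP3-4Myc replicate 1 and squares for replicate 2. CYP94B3 has the best rank in both lists, at 0.324% and 2.09%, and CYP94B1, LOX3 and JAZ2 lie beyond the dotted line at 50% in the list where they rank lowest.

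The sequence under the peaks was then examined for the G-box CACGTG, a palindrome that reads the same on both strands and is known as a binding site of MYC factors. In the 1 kb upstream of the TSS a G-box was present in 3 of the 11 members bound in both replicates (27.3%), in 10 of the other 30 members (33.3%), and in 14.8% of all protein-coding genes. Of the protein-coding genes bound in both replicates 25.7% had one, a share close to that of the bound members. Within the target regions of the 11 genes there were 18 G-boxes, and 11 of them were under the peaks of both replicates, at LOX4, AOS, OPR3, JAZ1, CYP94B3, CYP94C1 and ILL6. None of these 11 was upstream of a TSS. They comprised 7 in coding sequence, 2 in introns and 2 in untranslated regions. The stretch under both peaks reached upstream of the TSS at only 4 of the 11 genes, at the farthest to -167 bp. These places therefore follow largely from the extent of the peaks, and nothing is read from them. The 3 upstream G-boxes, at -844 bp from the TSS in JAZ1, -589 bp in JAZ5 and -6 bp in AOS, were outside the peaks of either library.

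The coding sequences that hold a G-box under both peaks are shown to give its places inside these genes. The peaks cover much of the gene bodies, so a G-box under them shows no link between MYC factors and AIPP3. Each is written 5′ to 3′ on the strand of the gene, from the RefSeq TAIR10.1 assembly, with the G-box in capitals. AOS carries a pair of them within 72 bp, and CYP94B3 carries one on each of 2 stretches.
LOX4 (chr1:27309738-27309797, plus strand): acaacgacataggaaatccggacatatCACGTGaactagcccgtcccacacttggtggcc
AOS (chr5:17098365-17098436, minus strand): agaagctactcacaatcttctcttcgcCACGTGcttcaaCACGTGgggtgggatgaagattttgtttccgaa
OPR3 (chr2:2359945-2360004, minus strand): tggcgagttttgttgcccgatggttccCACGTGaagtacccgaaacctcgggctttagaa
CYP94B3 (chr3:17975445-17975504, minus strand): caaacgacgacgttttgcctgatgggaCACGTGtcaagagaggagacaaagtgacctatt
CYP94B3 (chr3:17975836-17975895, minus strand): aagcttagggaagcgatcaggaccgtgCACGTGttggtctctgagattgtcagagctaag
CYP94C1 (chr2:11809702-11809761, plus strand): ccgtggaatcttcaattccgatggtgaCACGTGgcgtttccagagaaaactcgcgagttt

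Wide peaks contain many short motifs, so the share of peaks with a G-box was set beside that of the whole list. A G-box lay under 8 of 12 member peaks in replicate 1 (66.7%) and 8 of 13 in replicate 2 (61.5%), and under 46.2% and 38.4% of all nuclear peaks. Per kb of peak the members had 0.381 G-boxes in replicate 1 against 0.423 for all peaks, and 0.486 against 0.367 in replicate 2. The density was thus below that of the list in one library and above it in the other. A match is a run of letters and not evidence that a factor sat there.

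The GAGA motif (GAGAGA on either strand), which is known from plant Polycomb targets, was under every member peak, where 90% of all replicate 1 peaks and 88.8% of all replicate 2 peaks had it. Matches were less dense under the member peaks than over the whole list, with 1.82 against 2.09 per kb for replicate 1 and 1.68 against 2.14 for replicate 2. Of 40 GAGA matches under both peaks 21 were in coding sequence, 16 in untranslated regions, 2 in introns and 1 upstream of a TSS, at LOX4. Like those of the G-box, these places follow largely from the extent of the peaks. Overlapping matches were each counted, so a run of GA repeats counted several times. Most matches in untranslated regions lay at MYC2 and ILL6, which hold such runs. The telobox (AAACCCTA on either strand) was under 5 of 12 member peaks in replicate 1 (41.7%, against 25.1% of all nuclear peaks) and 3 of 13 in replicate 2 (23.1%, against 21.4%). Its density under member peaks was 0.205 against 0.165 per kb in replicate 1 and 0.0972 against 0.146 per kb in replicate 2, so it too was above the list in one library and below it in the other. LOX4, CYP94B3 and CYP94C1 had a telobox under both peaks. In the 1 kb upstream, 2 of the 11 genes (18.2%) held a GAGA motif and none a telobox. Of the other 30 members, 12 (40%) held a GAGA motif and 3 (10%) a telobox. The shares were 57.1% and 12.4% over all protein-coding genes, and 46.8% and 7.84% over those bound in both replicates. The GC share was 39.7% and 39.9% under member peaks, and 40.3% and 41.2% under all peaks.

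Only a short upstream stretch was under both peaks at the genes whose TSS was covered. These stretches are shown for LOX4, CYP94B3 and CYP94C1, from the edge of the shared peak to the base before the TSS, with a GAGA motif, read on the opposite strand, in capitals at LOX4. None holds a G-box. The stretch of AT5G05600 overlaps an exon of its neighbour and is left out.
LOX4 (chr1:27308408-27308512, plus strand): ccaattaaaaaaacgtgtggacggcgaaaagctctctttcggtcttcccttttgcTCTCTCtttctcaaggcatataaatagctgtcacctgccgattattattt
CYP94B3 (chr3:17976775-17976894, minus strand): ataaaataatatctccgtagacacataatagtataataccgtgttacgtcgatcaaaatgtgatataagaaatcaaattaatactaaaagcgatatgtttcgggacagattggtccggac
CYP94C1 (chr2:11809215-11809278, plus strand): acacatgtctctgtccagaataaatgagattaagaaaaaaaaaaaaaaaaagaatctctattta

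The 27 members without a peak were mostly far from one. Over the 29 members unbound in replicate 1 the gap from the target region to the nearest peak had a median of 20.8 kb, and 3 of them, JAZ3, AOC4 and LOX2, had a gap under 5 kb. In replicate 2 the median over 28 members was 71.0 kb, with AOC4 alone under 5 kb. JAZ3 was the closest to the limit of the call, since a replicate 1 peak with a score of 52.8 ended 161 bp before its target region, whereas its nearest replicate 2 peak was 165 kb away. At the far end was JAZ11, with gaps of 197 kb and 582 kb. For JAZ6 the nearest peak in both libraries was that of LOX4, 30.7 kb and 30.8 kb away. The gaps of JAZ4, JAZ7, JAZ8, JAZ9, JAZ10 and JAZ12 ran from 9.55 kb to 149 kb in replicate 1 and from 9.61 kb to 228 kb in replicate 2. On the inner side of the limit, the bound gene with the smallest share of its body under a peak was AT5G05600.

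**Figure D4:**
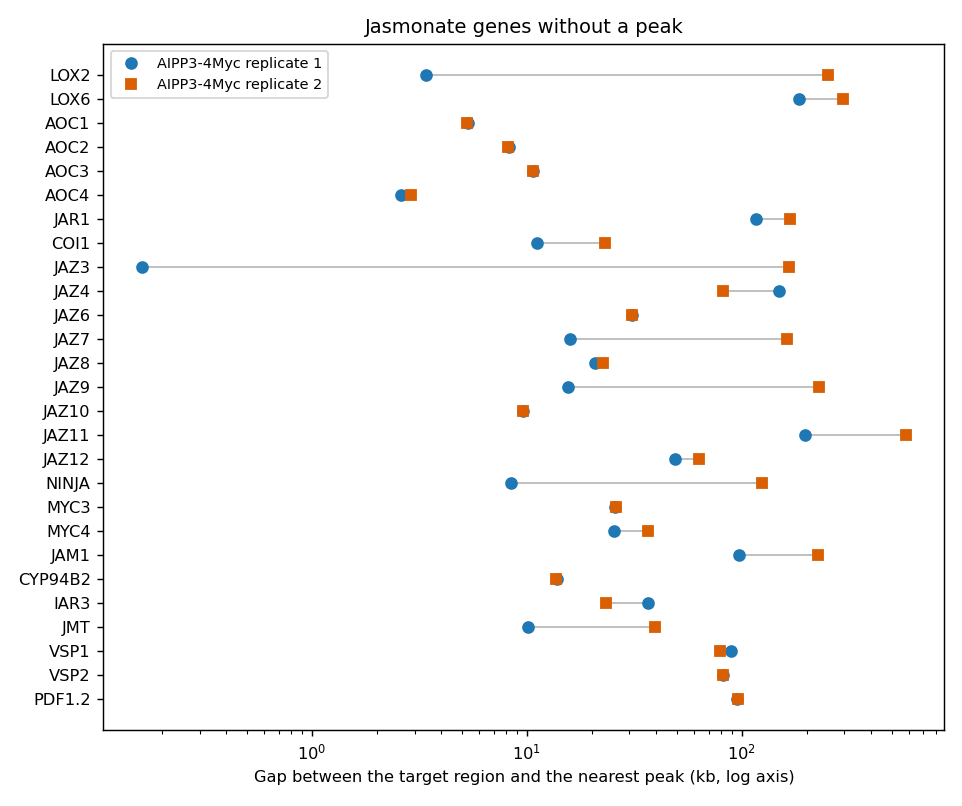
Gap between the target region and the nearest nuclear peak (x axis, kb, log axis) for the 27 jasmonate genes with no peak in either AIPP3-4Myc library, with circles for replicate 1 and squares for replicate 2. JAZ3 has the smallest gap, 0.161 kb in replicate 1, and JAZ11 the largest, 582 kb in replicate 2, while the AOC genes lie between 2.60 kb and 10.7 kb from a peak in both.

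A second list of 35 further genes of jasmonate metabolism, transport and response was looked up in the same way. In both replicates 3 of them (8.57%) were bound, in replicate 1 5 (14.3%) and in replicate 2 3, and none was bound in Col-0. Over all annotated nuclear genes the shares were 1.41% in both replicates, 4.26% in replicate 1 and 1.89% in replicate 2. The second list was also chosen with earlier results of these data known, so it is no independent check and was not tested. OPCL1 (AT1G20510), which encodes the ligase that activates the jasmonate precursor for shortening, had scores of 64.0 in replicate 1 and 75.4 in replicate 2, and its peaks reached into the long non-coding RNA gene AT1G20515 and the upstream region of AT1G20500. NIG1 (AT5G46830), a bHLH factor whose closest match in the annotation is MYC2, had scores of 213 and 117, and its peaks reached into the neighbouring AT5G46825. AT2G38240, annotated like AT5G05600 as an oxygenase that depends on oxoglutarate and iron, had a peak over its TSS with scores of 120 and 92.3. A separate peak with scores of 137 and 125 touched the TTS end of AT2G38240 but lay mostly on PDX1.1 (AT2G38230), a gene of pyridoxine synthesis, where it covered 975 bp and 973 bp and whose TSS was the nearest.

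Replicate 1 alone had peaks at JRG21 (AT3G55970), a jasmonate-regulated gene, and at ST2A (AT5G07010), which encodes a sulfotransferase, with scores of 52.9 and 52.6 close to the lowest of the list. They are named although they were bound in 1 library, a choice made after their values were seen. The other 30 genes of this list had no peak in any library.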

How the data were processed

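ChIP-seq peak lists of 1 Col-0 library and 2 AIPP3-4Myc libraries were analysed, grouped by the submitters' titles. According to the published methods, reads were mapped by the authors to TAIR10 with Bowtie2 (version 2.2.8) and called peaks with MACS (version 1.4), both at default settings. They deposited 1 list per library, and the deposited score is the MACS peak score. Use of a control library, duplicate handling and depth are not given in the sources used here, so precision cannot be set by read number. The lowest AIPP3-4Myc scores were close to 50, or a p-value of 1e-05.

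Gene models and sequence came from RefSeq TAIR10.1, whose nuclear chromosomes have the coordinates of TAIR10. Coordinates are 1-based, and organelle peaks were not used. The TSS and TTS were the ends of the gene record. Overlaps and motifs were computed with Python 3.11.15, pandas 2.3.3 and numpy 2.4.6, and the overlap rule was checked on peaks placed at known distances from genes. The members, their division into steps and the second list were chosen with earlier results of these data known. Named were all members with a peak, unbound members by step with their gaps or the range of these, genes whose target region shares a member's peak, and genes of the second list bound in both replicates. Members chosen with peaks in view and 2 libraries against 1 allow no test, so no p-value is given. Alternatives changed the score limit, the target region, the overlap, the assignment of peaks, the treatment of Col-0 overlaps and the number of replicate 1 peaks.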

Additional observations from a re-analysis of the deposited data

How the results depend on the processing

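With a score of at least 100, 7 members were bound in both replicates and 7 in replicate 2, and LOX3, AOS, JAZ5 and AT5G05600 left the joint set, which reduced synthesis to 2 genes, while 0.435% of all genes were called. With each peak given to the nearest TSS only, 6 members were bound in both and 8 in replicate 2, with 2 of synthesis and 1 of signalling, and 0.763% of all genes were called. LOX3, OPR3, JAZ1, JAZ5 and CYP94B3 were then lost because the nearest TSS, in at least 1 list, was that of a neighbouring gene. The joint count was 11 for gene bodies only, for 2 kb upstream, for an overlap of at least 200 bp, for midpoints inside the target region, without peaks that overlap a Col-0 peak, and with replicate 1 reduced to as many peaks as replicate 2. Using 1 AIPP3-4Myc library at a time gave 12 to 13 bound members. No paired analysis was possible, because 1 Col-0 library stood against 2 AIPP3-4Myc libraries and no pairing was stated. No test was made. Unknown depth limits every statement about a gene without a peak, and 1 Col-0 list of 16 nuclear peaks gives little measure of the background.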
